A study of Mus musculus with 172 samples.

Results

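The genes described here encode splicing factors and nuclear RNA-binding proteins, in cerebral cortex and liver of mice that were sleep deprived (SD) or left undisturbed (Ctr). They were chosen by gene symbol alone, as all listed genes whose symbols start with *Srsf* and a digit, *Tra2a* or *Tra2b*, *Hnrnp*, *Sf3a* or *Sf3b*, *Snrp*, *Luc7l*, or *Rbm* and a digit, with *Rbm3*, which responds to cold, left out. This gave 92 of the 16308 genes listed in either tissue, 91 of 14896 in cortex, 88 of 14107 in liver and 87 of the 12695 listed in both. *Rbm11*, *Rbm24*, *Snrpn* and *Srsf12* were listed in cortex only. *Rbm3os*, listed in liver only, is a noncoding RNA made opposite to *Rbm3* and belongs here by its symbol and not by its function.

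The animals were young adult male mice of BXD lines, inbred lines derived from crosses of C57BL/6J and DBA/2J, of both parental strains, and of both reciprocal F1 hybrids (C57/BL/J x DBA/2J, here BD, and DBA/2J x C57/BL/J, here DB). SD mice were kept awake for 6 h from light onset by gentle handling, and Ctr mice slept ad libitum in another room. Both were killed 6 h after light onset. RNA of the mice of a line was pooled by tissue and condition before sequencing, so that each library is 1 pool and the spread between mice of a line is not seen. BXD79, BXD85 and BXD101 bred poorly, and fewer of their mice were available for pooling than of the other lines. Their pools were counted like the others. The comparisons rest on 39 pools per tissue and condition, from 33 BXD/RwwJ lines, 4 parental pools (2 of each strain, the first and second sampled at the start and the end of the study) and 2 F1 pools. Another 4 BXD/TyJ lines are given as values beside them. In both panels some lines share a number in their genotype labels and differ only by an added letter, which marks them as sublines. Each was counted as a separate line in all counts over lines. Counts over lines are therefore not all of independent genotypes, and how alike these lines are was not tested.

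Splicing removes introns in steps. The U1 particle binds the start of an intron, the U2 particle its branch point, and a larger assembly then cuts and joins the exons. The Snrp proteins are the protein cores of these particles, the Sf3a and Sf3b proteins hold U2 on the branch point, and the Luc7l proteins work with U1 at the start of the intron. Srsf and Tra2 proteins bind enhancers within exons and draw the particles to them, whereas Hnrnp proteins coat new transcripts and often keep the particles away. The Rbm genes are a mixed group, named only for an RNA-binding motif. Many of these genes control their own transcripts by splicing in an exon with a premature stop, so that a gene-level count sums productive transcripts and those bound for decay.

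The values are log2 CPM, the reads counted on a gene scaled to the total of its library, on a log2 scale. The reads counted on listed genes, which are fewer than those sequenced, came to 18995492 to 28998853 per library in cortex (median 22170272 for Ctr). In liver they came to 4681101 to 8269401 (median 6752508 for Ctr). At an equal CPM, the level of a gene is therefore known better in cortex than in liver. Some genes had more reads in liver, such as *Snrpc* (mean 254, against 81.0 in cortex). A response is given as the log2 fold change of SD over Ctr with its standard error (SE), and was called where limma's Benjamini-Hochberg adjusted p, taken over all genes of the tissue, was under 0.05. Per exonic base, which takes account of gene length, 89 of the genes held 0.00155 to 2.10 reads in cortex (median 0.347), with *Hnrnpu* highest, against 12.3 for the neuronal *Snap25*. In liver, 85 of them held 0.00419 to 0.595 reads (median 0.146), with *Hnrnpk* highest, against 1.78 for *Alb* and 0.564 for *Actb*. Whether counts of abundant liver transcripts such as *Alb* are complete was not tested, so abundance relative to them is uncertain.

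Several of the genes described most closely lie, in mm9 and by GENCODE vM1, at chr6:49193920-49214051 (*Tra2a*), chr6:29073573-29115006 (*Rbm28*), chr5:100387445-100407957 (*Hnrnpd*), chr17:29169618-29180311 (*Srsf3*) and chr17:26389855-26422449 (*Luc7l*). Counts are uncertain where sequence is shared. Stretches of 96 bases that also occur elsewhere in the genome make up 44.6% of *Hnrnpf* and a larger share of *Hnrnpa1*, and of the exonic bases of *Rbm42* 75.2%, of *Rbm12* 33.0% and of *Hnrnpm* 24.8% overlap another gene on the same strand.

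In cortex most of these genes changed, and more rose than fell. Of 91 genes, 68 (74.7%) passed the test, against 68.4% of all 14896 genes, a share little different from the background. The direction was less even than the background, with 48 genes (52.7%) higher after SD against 33.0% of all genes, and 20 (22.0%) lower against 35.4%. The median log2 fold change was 0.079 over these genes and -0.0097 over all genes. Without regard to sign the median was 0.13 over both, and called changes of at least 0.5 were made by 5.49%, against 7.18% of all genes. The SD pool was on the same side of the Ctr pool in 39 of 39 lines for 22 of them (24.2%, against 11.2% of all genes). The 39 SD pools and 39 Ctr pools did not overlap at all for 7, *Tra2a*, *Hnrnph1*, *Hnrnpm* and *Srsf7* above, and *Hnrnpdl*, *Hnrnpr* and *Rbm11* below (1.40% of all genes).

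By subfamily, the enhancer-binding proteins mostly rose in cortex. Among the 11 *Srsf* genes 7 rose and 3 fell, and both *Tra2* genes rose. The 20 *Hnrnp* genes were divided, with 11 higher and 5 lower, and the 35 *Rbm* genes gave 21 and 8. Of the 8 *Sf3* genes 4 rose and 2 fell. The particle cores moved least, with 3 of 12 *Snrp* genes higher and none lower. The absolute log2 fold changes of the *Snrp* genes had a median of 0.056, against 0.13 over all genes. The U1-associated *Luc7l* genes went the other way, with 2 of 3 lower. With the line taken as a block, 50 of the 91 genes were higher and 25 lower in cortex, where 76.3% of all genes passed. The 7 gained were *Hnrnpa3* (adjusted p = 0.00175), *Snrpd1* (2.3e-04), *Hnrnpul1* (0.0252), *Luc7l* (0.0127), *Rbm46* (0.00129), *Snrpb2* (5.0e-07) and *Snrpn* (0.00898), the first and second of these higher and the others lower.

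**Figure D1:**
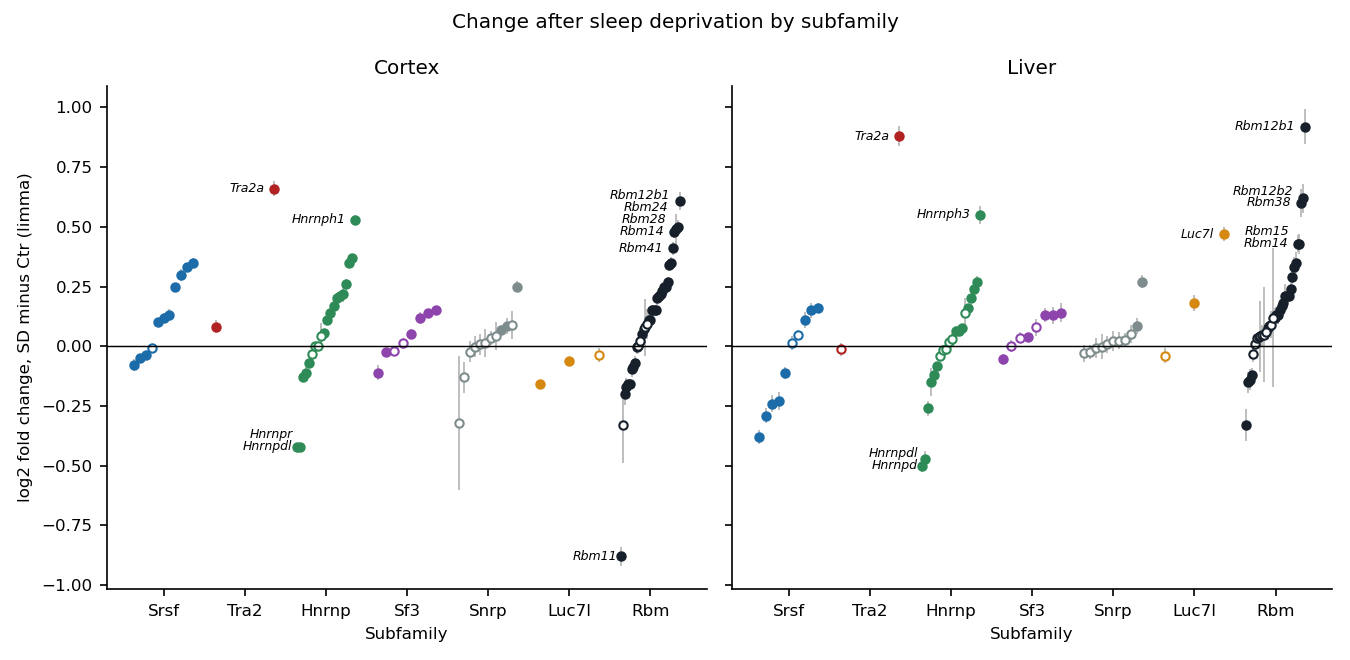
Log2 fold change of SD over Ctr (limma, 39 pools per condition) for each gene, by subfamily, in cortex (left) and liver (right). Each point is a gene, bars are SEs, and filled points passed the test; *Tra2a* and *Rbm12b1* stood highest in both tissues, and *Rbm11* lowest in cortex.

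The largest rise in cortex was that of *Tra2a*, which encodes one of the 2 mouse homologues of the fly sex-determining splicing factor Transformer-2. It ran from 5.74 to 6.33 log2 CPM in the Ctr pools (median 6.03) and from 6.35 to 6.94 log2 CPM in the SD pools (median 6.70). The pools did not overlap. *Tra2a* rose by 0.66 ± 0.032 (SE, n = 39, adjusted p = 6.3e-32), which is 58.4% more transcript. Its close relative *Tra2b* moved far less, from a median of 4.92 to 5.05 log2 CPM, with overlapping pools (log2 fold change 0.082 ± 0.028, adjusted p = 0.00761, higher in 30 of 39 lines).

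The promoters of this pair are shown because the genes are close relatives with unlike responses in both tissues. The sequences are from RefSeq (GRCm38.p6) and were found once each in mm9, *Tra2a* at chr6:49214022-49214301 and *Tra2b* at chr16:22266049-22266328, both on the minus strand. Each runs 5′ to 3′ from 250 bases before the start of transcription to 30 bases after it. Capitals mark the cyclic AMP response element TGACGTCA in *Tra2a*, starting at base -27, and in *Tra2b* the overlapping paired heat shock units GAANNTTC and TTCNNGAA, starting at bases -207 and -202.
Tra2a: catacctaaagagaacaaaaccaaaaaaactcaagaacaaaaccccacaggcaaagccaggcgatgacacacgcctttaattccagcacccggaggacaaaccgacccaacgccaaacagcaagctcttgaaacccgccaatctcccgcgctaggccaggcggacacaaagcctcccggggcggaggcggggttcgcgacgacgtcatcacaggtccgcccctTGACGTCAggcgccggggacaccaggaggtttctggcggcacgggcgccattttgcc
Tra2b: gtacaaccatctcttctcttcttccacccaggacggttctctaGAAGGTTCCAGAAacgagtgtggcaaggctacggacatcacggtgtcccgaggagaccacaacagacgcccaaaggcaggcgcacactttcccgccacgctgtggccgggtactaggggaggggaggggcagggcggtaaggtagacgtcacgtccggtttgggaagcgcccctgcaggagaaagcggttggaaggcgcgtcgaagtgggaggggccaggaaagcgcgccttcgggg
Over windows of 300 bases, TGACGTCA stood in the promoters of 3 of the 79 genes of this group that had a window (3.80%; *Snrpa*, *Snrpg* and *Tra2a*) and of 3.32% of the 12020 genes listed here that had one (2.03% of 27025 genes in all). GAANNTTC stood in 8 of them (10.1%, against 7.33% of the listed genes and 9.04% of all), TTCNNGAA in 9 (11.4%, against 8.44% and 9.60%), and the E-box CACGTG, the sequence bound by the clock proteins CLOCK and BMAL1, in 11 (13.9%, against 11.0% and 8.09%). Each of these motifs reads the same on both strands. The shares are a description of letters and not of binding.

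Several other genes of the *Srsf* family also rose in cortex, by smaller steps than *Tra2a*. *Srsf10*, whose protein represses splicing when dephosphorylated, as in heat shock and mitosis, ran from 5.58 to 6.05 log2 CPM in Ctr (median 5.81) and from 6.01 to 6.34 log2 CPM in SD (median 6.15), with 35 of 39 SD pools above every Ctr pool. It rose by 0.35 ± 0.020 (adjusted p = 1.7e-27). *Srsf7* had no overlap between its pools (log2 fold change 0.33 ± 0.016, adjusted p = 1.1e-32), and *Srsf3* (0.30 ± 0.025, adjusted p = 3.3e-18) and *Srsf6* (0.25 ± 0.014, adjusted p = 3.1e-27) rose in 39 of 39 lines. The 3 falls were small, -0.080 for *Srsf12*, -0.051 for *Srsf5* and -0.035 for *Srsf11*. *Srsf2* did not pass (-0.0092 ± 0.018, adjusted p = 0.657).

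The *Hnrnp* genes held both firm rises and firm falls in cortex. *Hnrnph1*, whose protein binds runs of G, ran from 7.71 to 8.07 log2 CPM in Ctr (median 7.79) and from 8.08 to 8.46 log2 CPM in SD (median 8.34). The pools came close but did not overlap, and the rise was 0.53 ± 0.018 (adjusted p = 2.2e-42), or 44.3%. *Hnrnpc*, which binds runs of U and packages new transcripts, rose from a median of 6.98 to 7.36 log2 CPM (0.37 ± 0.018, adjusted p = 3.4e-31), in 39 of 39 lines. *Hnrnpm* (0.35 ± 0.016) and *Hnrnpa2b1* (0.26 ± 0.020) also rose in 39 of 39 lines.

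*Hnrnpdl* and *Hnrnpr* fell as consistently as these rose. *Hnrnpdl*, a relative of the AU-rich element binding protein *Hnrnpd*, ran from 7.50 to 7.78 log2 CPM in Ctr (median 7.63) and from 7.06 to 7.44 log2 CPM in SD (median 7.21). *Hnrnpr*, found in neuronal axons with beta-actin mRNA, ran from 6.23 to 6.49 log2 CPM in Ctr (median 6.36) and from 5.77 to 6.13 log2 CPM in SD (median 5.95). Every SD pool lay below every Ctr pool for both genes. *Hnrnpdl* fell by 0.42 on the log2 scale (SE 0.016, adjusted p = 1.3e-38) and *Hnrnpr* by the same amount (SE 0.017, adjusted p = 4.5e-37). *Hnrnpd* itself was level, at a median of 7.42 log2 CPM in Ctr and 7.43 log2 CPM in SD (log2 fold change 0.0021 ± 0.013, adjusted p = 0.893).

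The particle proteins changed little in cortex. *Snrpa*, the U1-A protein, rose from a median of 4.98 to 5.23 log2 CPM in cortex (0.25 ± 0.024, adjusted p = 1.1e-15), in 38 of 39 lines. *Sf3a1*, the largest Sf3a protein, rose from 6.39 to 6.53 log2 CPM (0.15 ± 0.015, adjusted p = 3.1e-14), in 39 of 39 lines. The other *Sf3* genes lay between -0.11 (*Sf3b5*) and 0.14 (*Sf3b3*) on the log2 fold change scale. *Sf3b1*, the branch point protein often mutated in leukaemia, did not pass (-0.019 ± 0.012, adjusted p = 0.152). *Luc7l2* had the largest change of its family, from 8.04 to 7.86 log2 CPM (-0.16 ± 0.019, adjusted p = 1.1e-11), and fell in 37 of 39 lines.

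Among the *Rbm* genes of cortex, *Rbm11* made the largest change of all 91. The protein is a splicing factor restricted to a few tissues, brain among them. *Rbm11* ran from 2.66 to 3.21 log2 CPM in Ctr (median 2.96) and from 1.69 to 2.50 log2 CPM in SD (median 2.07). All SD pools lay below all Ctr pools, and the transcript fell by 45.8% (log2 fold change -0.88 ± 0.041, adjusted p = 4.9e-33), at a mean of 138 reads per pool. *Rbm12b1* (0.61 ± 0.038, adjusted p = 6.8e-25), *Rbm24*, best known from muscle splicing (0.50 ± 0.030, adjusted p = 4.6e-26), *Rbm28*, a nucleolar and spliceosomal protein (0.49 ± 0.063, adjusted p = 1.2e-10), *Rbm14*, a paraspeckle protein (0.48 ± 0.027, adjusted p = 2.6e-28), and *Rbm41* (0.41 ± 0.027, adjusted p = 2.0e-23) rose most.

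Falls other than that of *Rbm11* were modest in this family. *Rbm20*, known for the splicing of titin in heart, fell from a median of 2.86 to 2.66 log2 CPM (-0.20 ± 0.047, adjusted p = 1.6e-04), with pools that overlapped and 7 lines that rose. *Rbm34* (-0.17 ± 0.038, adjusted p = 4.9e-05), *Rbm5*, a regulator of splicing of apoptosis genes (-0.16 ± 0.019, adjusted p = 1.3e-12), and *Rbm7*, part of a complex that leads nuclear transcripts to the exosome (-0.16 ± 0.022, adjusted p = 1.3e-09), fell in 34, 37 and 35 of 39 lines. In contrast, the relatives of *Rbm5*, *Rbm6* (0.23 ± 0.018, adjusted p = 9.1e-20) and *Rbm10* (0.25 ± 0.017, adjusted p = 6.4e-23), rose in 39 of 39 lines. *Rbm15* (0.25 ± 0.031, adjusted p = 2.6e-11) and *Rbm15b* (0.27 ± 0.019, adjusted p = 9.8e-22), whose proteins guide the enzyme complex that methylates adenosines in mRNA, rose together.

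In liver fewer of these genes passed the test than in cortex, but a larger share than among all genes of liver. Their changes were not larger. The median absolute log2 fold change was 0.12 over these genes and over all genes. Called changes of at least 0.5 were made by 6.82%, against 7.29% of all genes. The share that passes also depends on the reads of a gene, for which all genes were not matched. Of 88 genes, 56 (63.6%) passed, against 44.2% of all 14107 genes. Rises again outnumbered falls, 40 (45.5%, against 21.5% of all genes) to 16 (18.2%, against 22.6%). The median log2 fold change was 0.056 over these genes and -0.0015 over all genes. For 8 genes the change went the same way in 39 of 39 lines (9.09%, against 2.40% of all genes): *Tra2a*, *Hnrnph3*, *Hnrnpm*, *Luc7l* and *Rbm12b1* rose, and *Hnrnpd*, *Hnrnpdl* and *Srsf2* fell. No gene of the group had pools without overlap (0.121% of all genes).

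The subfamilies were ordered otherwise than in cortex. Of 10 *Srsf* genes 5 fell and 3 rose in liver. *Tra2a* rose and *Tra2b* did not pass. The 20 *Hnrnp* genes gave 8 rises and 6 falls, the 8 *Sf3* genes 4 and 1, and the 34 *Rbm* genes 20 and 4. Only *Snrpa* and *Snrpd3* of 11 *Snrp* genes passed, both higher. The absolute log2 fold changes of this family had a median of 0.023, against 0.12 over all genes. *Luc7l* and *Luc7l3* rose. With the line as a block 43 genes rose and 17 fell (53.9% of all genes passed), and the 4 gained were *Hnrnpa1* (adjusted p = 0.0285), *Rbm7* (0.0382) and *Srsf6* (0.0324) higher and *Hnrnpk* (0.0461) lower.

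**Figure D2:**
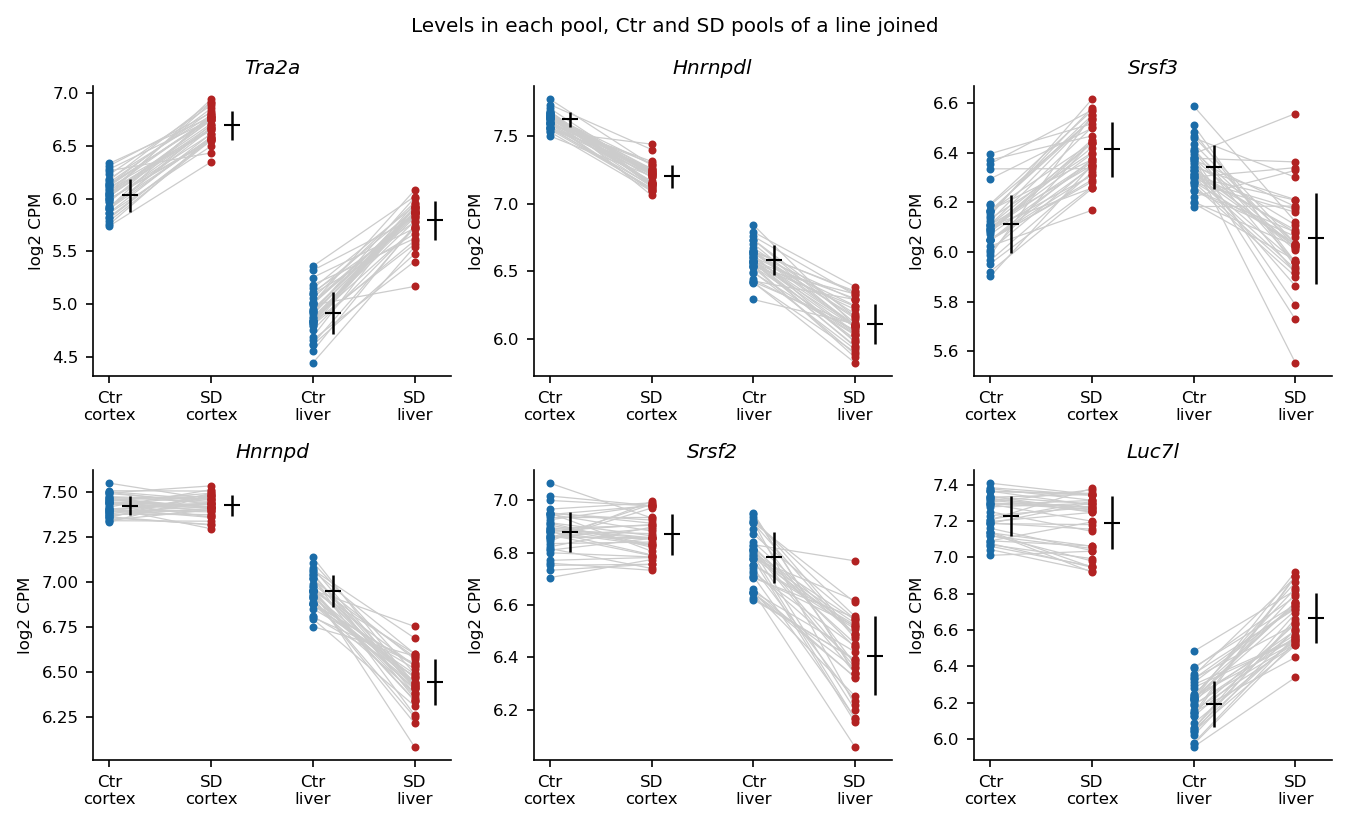
Levels (log2 CPM) of 6 genes in the 39 Ctr pools (blue) and 39 SD pools (red) of cortex and liver. Grey lines join the pools of a line, and black marks give the mean and its standard deviation; *Tra2a* rose and *Hnrnpdl* fell in both tissues, *Srsf3* rose in cortex and fell in liver, and *Hnrnpd*, *Srsf2* and *Luc7l* moved mainly in liver.

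*Rbm12b1* and *Tra2a* rose most in liver. *Rbm12b1* ran from 1.30 to 3.34 log2 CPM in Ctr (median 2.81) and from 2.61 to 4.12 log2 CPM in SD (median 3.70), with 34 of 39 SD pools above all Ctr pools (0.92 ± 0.074, adjusted p = 1.9e-18), at a mean of 65.2 reads per pool. Its neighbour *Rbm12b2* rose by 0.62 ± 0.061 (adjusted p = 2.4e-14). Both lie on chromosome 4 and are alike in sequence, and 24.7% and 22.0% of their 96-base stretches occur elsewhere in the mm9 genome, so that their reads may be lost or shared and their counts are uncertain. *Tra2a*, with no such stretch, ran from 4.44 to 5.36 log2 CPM in Ctr (median 4.90) and from 5.17 to 6.08 log2 CPM in SD (median 5.86). It rose by 0.88 ± 0.043 (adjusted p = 2.7e-30), or 84.3%, and 38 of 39 SD pools lay above every Ctr pool. *Tra2b* stayed at medians of 6.03 and 6.01 log2 CPM (-0.013 ± 0.027, adjusted p = 0.742).

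*Hnrnph3* and *Luc7l* also rose in every line in liver. *Hnrnph3*, the small relative of *Hnrnph1*, ran from 4.70 to 5.60 log2 CPM in Ctr (median 5.23) and from 5.47 to 6.00 log2 CPM in SD (median 5.79), a rise of 0.55 ± 0.037 (adjusted p = 6.2e-22). *Luc7l* ran from 5.96 to 6.48 log2 CPM in Ctr (median 6.21) and from 6.34 to 6.92 log2 CPM in SD (median 6.65), a rise of 0.47 ± 0.030 (adjusted p = 1.1e-23). The overlap was small for both, as 34 and 37 of 39 SD pools exceeded all Ctr pools. *Rbm38*, a target of p53 that stabilises p21 mRNA, rose from a median of 2.95 to 3.56 log2 CPM (0.60 ± 0.060, adjusted p = 2.5e-14), and *Rbm15* (0.43 ± 0.042, adjusted p = 1.2e-14) and *Rbm14* (0.43 ± 0.035, adjusted p = 2.9e-18) followed. *Snrpa* (0.27 ± 0.027, adjusted p = 4.5e-14) and *Sf3a2* (0.14 ± 0.040, adjusted p = 0.00243) made the largest changes of their families.

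*Hnrnpd* had the largest fall in liver. Its protein, AUF1, binds AU-rich elements of short-lived mRNAs. It ran from 6.75 to 7.14 log2 CPM in Ctr (median 6.95) and from 6.08 to 6.75 log2 CPM in SD (median 6.44), with 38 of 39 SD pools below all Ctr pools. The transcript fell by 29.5% (log2 fold change -0.50 ± 0.025, adjusted p = 1.3e-29). *Hnrnpdl* ran from 6.29 to 6.84 log2 CPM in Ctr (median 6.58) and from 5.82 to 6.39 log2 CPM in SD (median 6.10), and fell by 0.47 on the log2 scale (SE 0.030, adjusted p = 6.1e-24). *Srsf2*, a founding member of the SR proteins, ran from 6.62 to 6.95 log2 CPM in Ctr (median 6.79) and from 6.06 to 6.77 log2 CPM in SD (median 6.42), again with 38 of 39 SD pools below all Ctr pools (-0.38 ± 0.029, adjusted p = 1.7e-19). *Srsf3*, *Srsf5* and *Srsf11* fell by 0.29, 0.24 and 0.23 on the log2 scale, and *Rbm43* (-0.33 ± 0.067, adjusted p = 2.6e-05) and *Hnrnpr* (-0.26 ± 0.030, adjusted p = 2.2e-11) fell in 34 and 37 of 39 lines.

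Both tissues were collected from the same set of mice, so the change of a line in liver was set against its change in cortex. Whether the pools of both tissues hold the same animals of a line is not known. Of 87 genes listed in both, 46 (52.9%) passed in both tissues, against 33.9% of all 12695 genes. They rose in both in 30 cases and fell in both in 8. Another 8 moved in opposite directions, 9.20% of the 87, against 9.47% of all genes, and 12 passed in neither. Of the genes called in both tissues, the opposite ones were 17.4% in this group and 28.0% among all genes. The difference between tissues itself was past the threshold for 54 genes (62.1%, against 57.6% of all genes), 24 higher in liver (28.0% of all genes) and 30 lower in liver (29.6% of all genes).

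**Figure D3:**
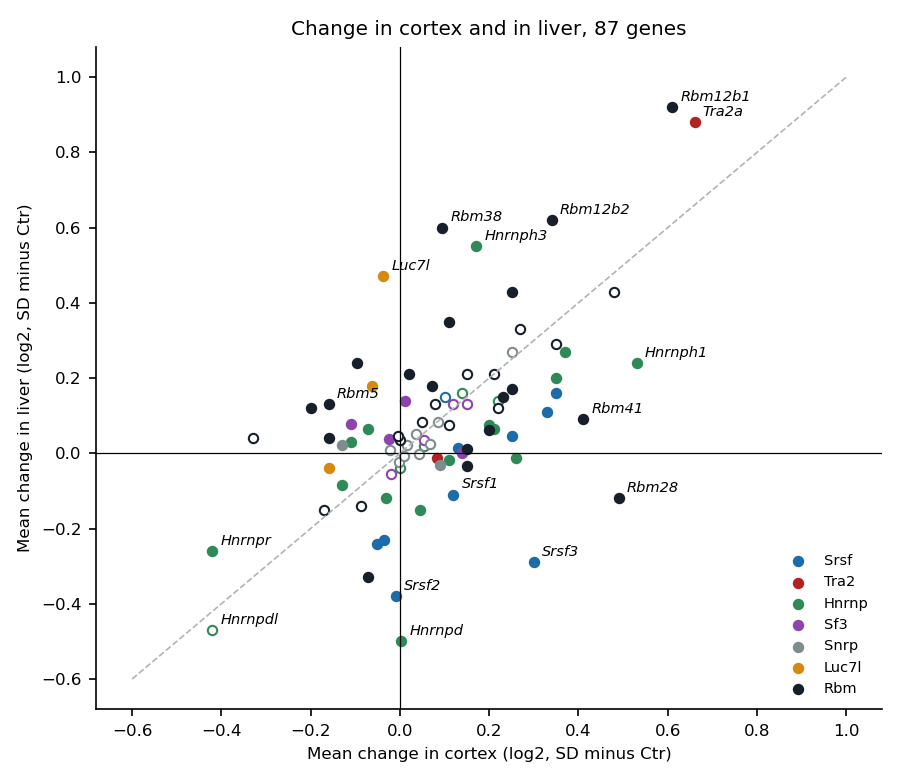
Mean change after SD (log2) in cortex (horizontal) and liver (vertical) of the 87 genes listed in both tissues, coloured by subfamily. Filled points passed the test of the difference between tissues and the dashed line marks equal change; 9 of 10 *Srsf* genes lie below it, and *Luc7l*, *Hnrnph3* and *Rbm38* well above it.

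The subfamilies differed most clearly in this comparison. In 9 of 10 *Srsf* genes the change in liver was below that in cortex, and in none above, with a median difference of -0.20 against -0.0033 over all genes. *Srsf4* was the remaining one (0.043 ± 0.025, adjusted p = 0.138). All 3 *Luc7l* genes changed more positively in liver (median difference 0.24). Of 20 *Hnrnp* genes 10 were lower in liver and 5 higher, of 33 *Rbm* genes 8 and 11, of 8 *Sf3* genes 1 and 3, and of 11 *Snrp* genes 1 and 1. The 2 *Tra2* genes parted, *Tra2a* with the larger rise in liver (difference 0.22 ± 0.040, adjusted p = 8.8e-06) and *Tra2b* with the smaller change (-0.095 ± 0.032, adjusted p = 0.00990).

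*Rbm28* had the widest difference. Its median went from 5.82 to 6.11 log2 CPM in cortex and from 6.62 to 6.51 log2 CPM in liver, where it fell (-0.12 ± 0.031, adjusted p = 9.6e-04). The difference was -0.61 ± 0.047 (adjusted p = 9.4e-15), and the change in liver was the lower one in 39 of 39 lines. *Srsf3* went from 6.10 to 6.40 log2 CPM in cortex and from 6.33 to 6.03 log2 CPM in liver (difference -0.59 ± 0.039, adjusted p = 4.7e-17), also in 39 of 39 lines. Its protein couples splicing to mRNA export, and 11.4% of its 96-base stretches occur elsewhere in the mm9 genome. *Hnrnpd* (-0.51 ± 0.024, adjusted p = 1.8e-21, 39 of 39 lines) was level in cortex and fell in liver.

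In the other direction, *Luc7l* (0.51 ± 0.026, adjusted p = 8.2e-21) was the higher in liver in 39 of 39 lines. It did not pass in cortex (-0.037 ± 0.029, adjusted p = 0.264; 0.0127 with the line as a block) and rose in liver. *Rbm38* (0.51 ± 0.086, adjusted p = 2.0e-06) and *Hnrnph3* (0.38 ± 0.035, adjusted p = 2.4e-12) had larger changes in liver in 33 and 37 of 39 lines. *Rbm38* was low in cortex, at a mean of 42.5 reads per pool, and did not pass there (0.094 ± 0.063, adjusted p = 0.178).

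Among the 8 genes called in opposite directions, *Srsf1*, *Srsf3* and *Rbm28* rose in cortex and fell in liver. *Srsf1*, also known as SF2, rose by 0.12 ± 0.019 in cortex and fell by 0.11 on the log2 scale in liver (difference -0.23 ± 0.024, adjusted p = 3.1e-11). *Hnrnpu*, *Luc7l3*, *Rbm5*, *Rbm48* and *Sf3b2* fell in cortex and rose in liver. *Rbm5* differed by 0.29 ± 0.029 (adjusted p = 1.7e-11, 39 of 39 lines), and *Rbm48*, which takes part in the splicing of U12-type introns, by 0.34 ± 0.048 (adjusted p = 8.0e-08). *Sf3b2* shows how small a called change could be, falling by 0.025 on the log2 scale in cortex and rising by 0.037 in liver.

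The promoters of *Rbm28* and *Hnrnpd* are shown as those of 2 genes with wide differences in 39 of 39 lines, chosen after the values were seen. They are from RefSeq (GRCm38.p6), were found once each in mm9 at chr6:29114695-29114974 (*Rbm28*) and chr5:100407928-100408207 (*Hnrnpd*), both on the minus strand, and cover the same 280 bases relative to the start. Capitals mark TTCNNGAA, starting at bases -94, -53 and 7 in *Rbm28*, and the E-box CACGTG, starting at base -32 in *Hnrnpd*.
Rbm28: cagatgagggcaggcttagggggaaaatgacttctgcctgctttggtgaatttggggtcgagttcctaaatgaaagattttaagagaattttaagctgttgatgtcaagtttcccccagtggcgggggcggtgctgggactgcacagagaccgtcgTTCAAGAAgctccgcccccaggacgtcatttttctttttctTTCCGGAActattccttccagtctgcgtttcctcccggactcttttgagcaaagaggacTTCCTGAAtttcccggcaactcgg
Hnrnpd: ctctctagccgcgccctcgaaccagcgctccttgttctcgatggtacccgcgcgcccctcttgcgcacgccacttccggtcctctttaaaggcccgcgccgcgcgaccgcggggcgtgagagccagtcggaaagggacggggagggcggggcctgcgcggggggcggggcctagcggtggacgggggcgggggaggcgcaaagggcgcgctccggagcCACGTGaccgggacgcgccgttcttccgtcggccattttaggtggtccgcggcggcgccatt
At least 3 copies of TTCNNGAA in 1 window were found in 15 of 27025 genes (0.0555%), a count made after the copies in *Rbm28* had been seen.

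The spread over lines was smaller for these genes than over all listed genes. It holds counting noise as well as differences between lines, and all genes were not matched to these for read number. The median standard deviation of the change over the lines was 0.11 in cortex (0.14 over all genes) and 0.17 in liver (0.25 over all genes), and that of the Ctr level was 0.11 and 0.12 (0.14 and 0.20 over all genes). Of genes with a mean of at least 1 log2 CPM in the tissue, the most variable changes in cortex were those of *Rbm12b1* (0.26), *Snrpg* (0.25), *Rbm28* (0.25) and *Rbm20* (0.24), and in liver those of *Rbm20* (0.55), *Rbm12b1* (0.44), *Rbm38* (0.38) and *Rbm43* (0.36). Of the same genes, the Ctr levels that varied most in cortex were those of particle proteins, the U2 protein *Snrpb2* (0.29), the U1 protein *Snrpc* (0.28) and the Sm proteins *Snrpf* (0.28) and *Snrpd1* (0.25), the last level with *Hnrnpa3* (0.25). In liver they were *Rbm20* (1.3), *Rbm12b1* (0.37), *Rbm12b2* (0.30) and *Hnrnpa1* (0.28). Counting noise weighs on both rankings where reads are few. Mean reads were 78.9 for *Snrpg*, 81.0 for *Snrpc* and 87.5 for *Snrpf* in cortex, and 65.2 for *Rbm12b1* and 52.1 for *Rbm20* in liver. *Rbm12b1* in liver also rests in part on BXD70, with a change of 2.45 and the next BXD/RwwJ line at 1.47.

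For a few genes the lines fell into groups near the levels of the parental pools, and these levels are described here without a test.

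**Figure D4:**
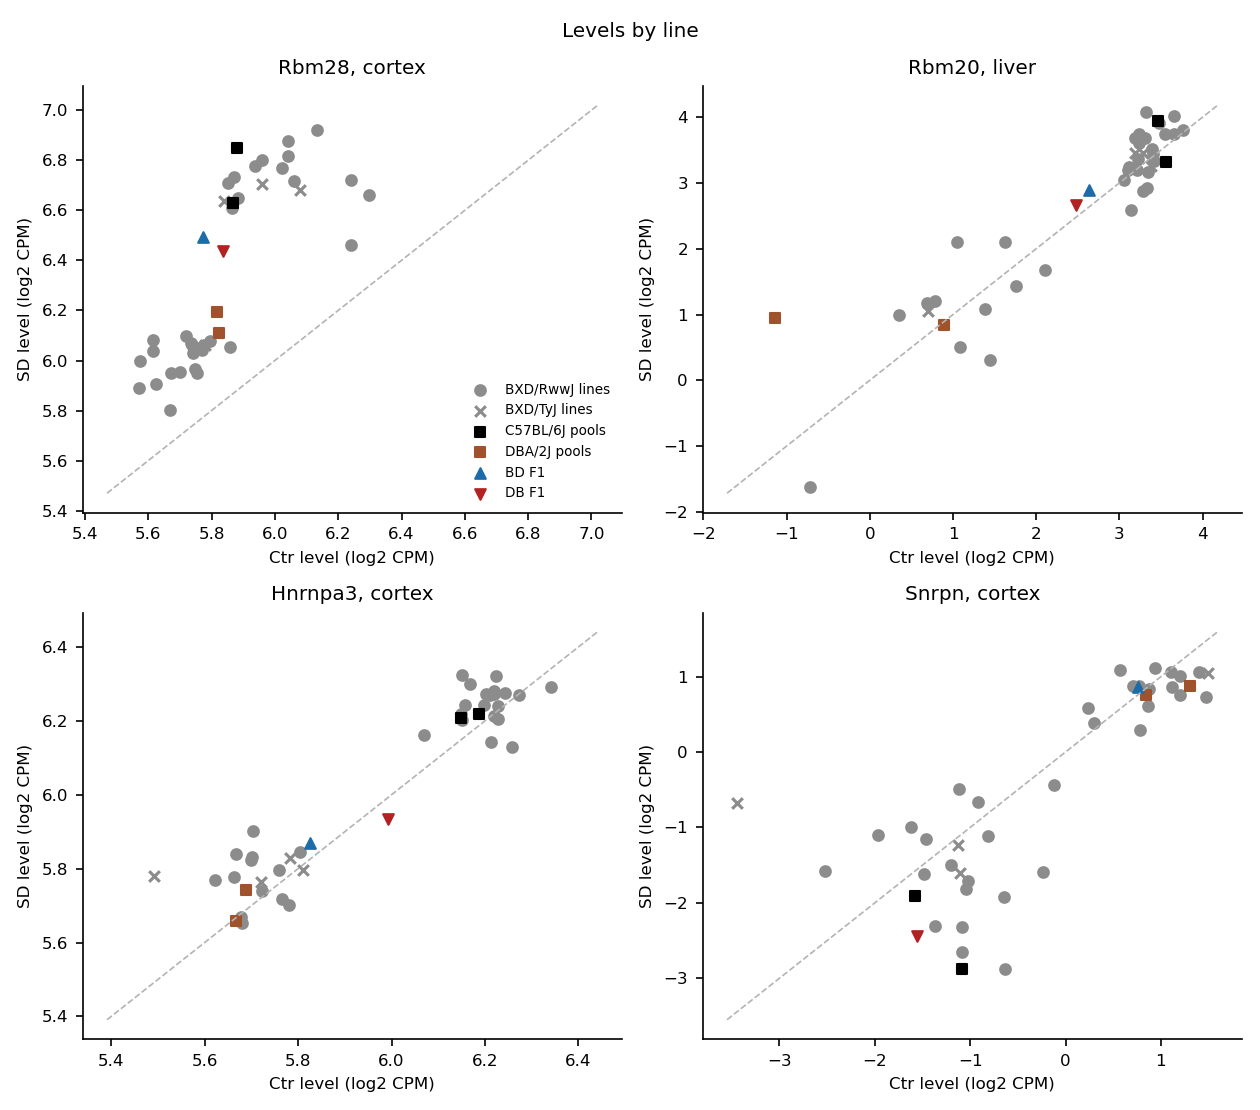
Level in the SD pool against level in the Ctr pool of each line (log2 CPM) for *Rbm28* in cortex, *Rbm20* in liver, *Hnrnpa3* in cortex and *Snrpn* in cortex, with parental and F1 pools marked. The dashed line marks equal levels; the 14 lines with the highest SD levels of *Rbm28* also lay toward the upper end of its Ctr levels.

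*Rbm28* in cortex fell into groups of lines most widely spaced after SD. In 19 BXD/RwwJ lines it reached at most 6.10 log2 CPM after SD and in 14 lines at least 6.46 log2 CPM, with no line between. The C57BL/6J pools had 6.85 and 6.63 log2 CPM after SD and the DBA/2J pools 6.11 and 6.19 log2 CPM, while their Ctr levels were 5.88 and 5.87 against 5.82 and 5.82 log2 CPM. The parental strains thus lay closer together when undisturbed than after SD, and the F1 pools, at 6.49 (BD) and 6.44 (DB) log2 CPM after SD, lay between. The lines differed in Ctr too, where the 14 lines ran from 5.85 to 6.30 log2 CPM and the 19 lines from 5.57 to 5.86 log2 CPM, and the SD and Ctr pools were on the same side of the mid-parent value in 32 of 33 lines. The change itself was 0.13 to 0.48 in 22 lines and 0.66 to 0.86 in 11 lines, against 0.97 and 0.76 in C57BL/6J and 0.29 and 0.38 in DBA/2J.

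All 11 lines with a large change were among the 14 with a high SD level. The other 3, BXD56, BXD89 and BXD97, were those with the highest Ctr levels of the 33 (6.24, 6.24 and 6.30 log2 CPM), and changed by 0.48, 0.22 and 0.36. In liver the SD levels of *Rbm28* ran from 5.99 to 6.79 log2 CPM with no gap wider than 0.13, and the parental pools had changes of 0.13 and -0.036 (C57BL/6J) and -0.13 and -0.17 (DBA/2J). Of the BXD/TyJ lines, BXD05, BXD29 and BXD29t changed by 0.75, 0.80 and 0.60 in cortex and BXD32 by 0.28.

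*Rbm20* in liver differed between lines in both conditions. In Ctr pools 11 BXD/RwwJ lines reached at most 2.10 log2 CPM and 22 lines at least 3.05 log2 CPM. The C57BL/6J pools had 3.56 and 3.46 log2 CPM, the DBA/2J pools -1.14 and 0.89 log2 CPM (2 and 12 reads), and the F1 pools 2.63 (BD) and 2.47 (DB) log2 CPM. After SD 31 of 33 lines were on the same side of the mid-parent value. This spread was wider than the mean response, and *Rbm20* did not pass in liver (log2 fold change 0.12 ± 0.29, adjusted p = 0.774). In cortex the parental pools had 2.93 to 3.18 log2 CPM and showed no such separation.

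*Hnrnpa3*, described here after its values were seen, had a separation that was shared by both tissues. In cortex, 13 lines reached at most 5.81 log2 CPM in Ctr and 20 lines at least 6.07 log2 CPM, with the C57BL/6J pools at 6.15 and 6.19, the DBA/2J pools at 5.67 and 5.69, and the F1 pools at 5.82 and 5.99 log2 CPM. After SD 33 of 33 lines stayed on their side of the mid-parent value, and the Ctr pool of liver lay on the same side as that of cortex in 33 of 33 lines. The count of this gene is uncertain, since 51.0% of its 96-base stretches occur elsewhere in the mm9 genome. *Snrpb2* and *Snrpd1*, of the U2 particle and the Sm core, kept their side between Ctr and SD in 30 and 32 of 33 lines in cortex.

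*Snrpn*, also described after its values were seen, encodes the neuronal Sm protein and lies in an imprinted region of which the paternal copy is expressed. It was at a very low level in the cortex values used here, at a mean of 23.2 reads. The C57BL/6J pools had -1.58 and -1.09 log2 CPM in Ctr (7 and 9 reads) and the DBA/2J pools 0.85 and 1.31 log2 CPM (38 and 47 reads). BD, with DBA/2J named second, had 0.76 log2 CPM (44 reads) and DB, with C57/BL/J named second, -1.56 log2 CPM (7 reads), and after SD they had 0.87 and -2.44 log2 CPM. Each F1 pool was thus nearer to the strain named second, by convention the father, in both conditions, and 31 of 33 BXD/RwwJ lines kept their side of the mid-parent value. Each cross is 1 pool per condition. Reads on exons shared with the overlapping gene *Snurf* would be ambiguous to the counting used, and their number is not known.

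The 4 BXD/TyJ lines, which entered no fit, changed largely as the 39 pools did. Of 29 named genes called in cortex, 27 moved the called way in all 4 lines (the exceptions were *Hnrnpa1* and *Rbm43*), and of 27 called in liver, 25 did (the exceptions were *Rbm48* and *Sf3a2*). Their changes lay within the range of the 39 pools in 112 of 116 cases in cortex and 106 of 108 in liver.

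Some libraries stood apart. BXD70 had the lowest change for 17 and the highest for 27 of the 88 genes in liver, and among the 91 genes in cortex BXD89 had the lowest for 18, and BXD90 the lowest for 16 and the highest for 13. For 21 of the 68 genes called in cortex, BXD89 was the line with the smallest change in the called direction (median 0.040, against 0.20 over the lines). This is 30.9%, against 14.4% of all called genes. Over all called genes of cortex the median of BXD89 was low too, at 0.061, against 0.19 over the lines. BXD90 was that line for 17.6% of these genes and 15.1% of all called genes, and in liver BXD70 for 19.6% and 20.4%. Without BXD89 and BXD90, an alternative chosen after seeing the data, 48 genes rose and 22 fell in cortex. Without BXD70, 38 rose and 15 fell in liver, and without all 3 lines the tissues differed for 25 genes upward and 32 downward.

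Other genes of splicing, outside the symbols chosen here, also moved in both directions, as did all genes. For these lists and those that follow, the background was 33.0% of all genes higher and 35.4% lower in cortex. In liver it was 21.5% higher and 22.6% lower. Of the kinases that phosphorylate SR proteins, 6 of 9 rose and 2 fell in cortex (median 0.088), and 3 of 8 rose and 2 fell in liver (median 0.0081). *Clk1* rose in cortex (0.30 ± 0.022, adjusted p = 4.9e-22) and did not pass in liver (0.00085 ± 0.034, adjusted p = 0.987), and *Srpk3* fell in cortex (-0.34 ± 0.038, adjusted p = 1.5e-12). Of 24 Prp and U4/U6.U5 factors 10 rose and 8 fell in cortex, and 8 rose and 7 fell in liver, where *Snrnp48*, of the U11/U12 particle, rose by 0.71 ± 0.039 (adjusted p = 2.8e-27) in 39 of 39 lines. Among 9 factors of U2 recruitment 5 rose and 1 fell in cortex, and 4 rose and 1 fell in liver, with *Zrsr1* up by 0.45 ± 0.040 (adjusted p = 2.9e-16). The Sm-like and SMN complex genes gave 6 rises and 4 falls of 17 in cortex and 8 and 4 of 18 in liver, with *Lsm11*, which processes histone mRNA, up by 0.57 ± 0.038 (adjusted p = 1.5e-23) in cortex.

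Tissue-biased splicing regulators were divided in cortex, with 12 rises and 11 falls of 28, and gave 7 and 4 of 21 in liver. *Nova1* (-0.35 ± 0.027, adjusted p = 1.9e-20) and *Srrm4* (-0.26 ± 0.023, adjusted p = 6.7e-17), both regulators of neuronal exons, fell in cortex, whereas *Rbfox2* rose (0.26 ± 0.015, adjusted p = 2.8e-28). Of 10 genes of paraspeckles and related RNA-binding proteins, among them the noncoding RNAs *Neat1* and *Malat1*, 3 rose and 2 fell in cortex. 2 rose and 4 fell in liver, with *Neat1* among the falls (-0.75 ± 0.15). In liver *Pspc1* (-0.85 ± 0.050, adjusted p = 9.0e-26) fell in 39 of 39 lines, and *Sfpq* rose in all of them in both tissues (0.39 ± 0.024 in cortex, 0.24 ± 0.023 in liver). Nonsense-mediated decay, which removes the transcripts with poison exons, gave 5 rises and 3 falls of 10 in cortex and 5 and 2 in liver. *Sfrs18*, a splicing gene under an older symbol that the rule does not take, passed in neither tissue (0.029 and 0.037).

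Genes of other responses moved with the groups. All 13 cytosolic heat shock genes rose in cortex (median 0.56) and in liver (median 0.72). *Cirbp*, a cold-inducible RNA-binding protein, fell in cortex (-1.24 ± 0.042, adjusted p = 3.4e-42) and liver (-1.52 ± 0.058, adjusted p = 1.6e-37), and *Rbm3* rose in cortex (0.65 ± 0.030, adjusted p = 2.1e-33) and fell in liver (-0.86 ± 0.051, adjusted p = 1.5e-25). Their part in the changes of the splicing genes was not tested.

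Markers of several cell types differed between SD and Ctr in cortex, where 68.4% of all genes passed the test, 33.0% higher and 35.4% lower. In bulk tissue fewer cells of a type and less RNA per cell cannot be told apart. In cortex, 1 of 6 neuronal markers rose and 3 fell (summed 7848 to 8890 CPM in Ctr and 7630 to 8566 CPM in SD). Oligodendrocyte markers gave 1 rise and 1 fall of 5, astrocyte 3 and 0 of 5, microglia 2 and 2 of 5, endothelium 2 and 2 of 4, and choroid plexus 0 and 0 of 3. The stellate cell list gave 0 and 2 of 3, cholangiocyte 0 and 1 of 1, erythroid 0 and 0 of 1, and hepatocyte 0 and 0 of 2, with *Alb*, *Apoa1* and *Cyp2e1* not listed. Genes of lists made for liver need not mark those cells in cortex. The cholangiocyte gene was *Sox9*, *Reln* was a stellate cell gene, and *Ttr* stood in both the hepatocyte and choroid plexus lists. Choroid plexus markers summed to 3.59 to 227 CPM in Ctr and 4.36 to 392 CPM in SD, so that pools differed in this tissue within each condition.

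In liver none of 5 hepatocyte markers passed (summed 1151 to 1979 CPM in Ctr and 1152 to 1963 CPM in SD), nor did any of 4 Kupffer cell markers. Of all genes in liver, 44.2% passed, 21.5% higher and 22.6% lower. Whether the counts of the hepatocyte markers are complete was not tested. All 4 B cell markers fell (median -1.53), with a sum of 5.86 to 25.8 CPM in Ctr and 1.70 to 12.1 CPM in SD, and no B cell or Kupffer cell marker was listed in cortex. The other lists gave 0 rises and 1 fall of 2 (neuron), 0 and 2 of 2 (oligodendrocyte), 0 and 0 of 4 (astrocyte), 1 and 0 of 5 (microglia), 1 and 2 of 4 (endothelium), 0 and 0 of 2 (choroid plexus), 0 and 0 of 1 (erythroid), 0 and 1 of 4 (cholangiocyte) and 1 and 1 of 4 (stellate cell). Genes of lists made for brain need not mark those cells in liver, as with *Aldh1l1* of the astrocyte list and *Ttr* of the choroid plexus list. No listed marker had a median at 0 reads in either tissue. The part of these marker changes in the changes of the splicing genes was not tested.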

How the data were processed

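Stranded mRNA libraries (172) were made from pooled RNA. The values are log2 CPM as deposited by the authors, who aligned reads to mm9 with STAR, counted them per gene with HTSeq, left out genes with low counts, and normalized with edgeR by TMM. When these steps were undone, 100.0% of values came within 0.02 of a whole number of reads, and these reads gave the depths. The tissues were normalized apart, so no levels were tested between them.

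SD and Ctr were compared over all listed genes by linear models with empirical Bayes moderation and a variance trend (limma 3.58.1, R 4.3.3), and the difference between tissues on the change of each line over 12695 genes. P values and SEs of SD against Ctr measure the spread between pools, in fits that do not pair the pools of a line. Those of the difference between tissues measure the spread of that difference over lines, so the SEs of both tests are not alike. The script was tested on simulated data. Same-line pools of Ctr and SD deviated together (r of at least 0.299 in cortex and 0.169 in liver, against medians of -0.0197 and -0.0180 between lines), and since a line is a genotype shared by both pools, values with the line as a block are given where they change a call.

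Genes named were, per tissue, the 8 largest called rises and 8 largest called falls, the largest called change of each subfamily, the 4 genes with the most variable change and the 4 with the most variable Ctr level (mean log2 CPM of at least 1), the 6 largest tissue differences, and 5 genes called in opposite directions; *Tra2a* is named in any case. This gave 39 genes. Others are examples picked after their values were seen. Members and lists were chosen with earlier results of these data known. The other lists were SR kinases, Prp factors, U2 recruitment, Sm-like and SMN, tissue-biased regulators, paraspeckle and related genes, nonsense-mediated decay, older symbols, heat shock, cold-inducible genes and cell type markers. Some single genes of these lists are not reported here.

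Positions and shared stretches of 96 bases came from GENCODE vM1 on mm9 (89 of 92 genes matched), promoters from RefSeq (79 of 92). Alternatives were a replicate block, voom on the recovered reads with and without it, no trend, median-centred libraries, a prior of 5 reads, a minimum mean log2 CPM of 0, all 43 pools, the BXD/RwwJ lines alone, averaged parental pools, and pools left out. Protein features were not analysed here.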

Additional observations from a re-analysis of the deposited data

Results flagged for a closer look

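The change after SD differed between the tissues for 24 genes that were higher in liver and 30 that were lower in liver (limma on the change of each line, adjusted p under 0.05). Among the genes named, the change in liver minus that in cortex was -0.61 for *Rbm28*, -0.59 for *Srsf3*, -0.51 for *Hnrnpd* and -0.23 for *Srsf1*. It was 0.51 for *Luc7l*, 0.51 for *Rbm38*, 0.38 for *Hnrnph3*, 0.34 for *Rbm48* and 0.29 for *Rbm5*.

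In the 4 BXD/TyJ lines, 1 line lay far from the other 3 in 5 of 77 groups examined, by a gap above Dixon's critical share of the group's range, and chance alone gives about 1 such group in 20. In cortex these were *Rbm5* in BXD32 (change -0.16), *Sf3a1* in BXD05 (0.28) and *Snrpn* in BXD29 (2.78), and in liver *Hnrnpd* in BXD29t (-0.40) and *Rbm14* in BXD05 (0.63). The *Snrpn* value follows a Ctr level of -3.45 log2 CPM, close to the -4.51 of a gene without reads.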

How the results depend on the processing

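The counts of genes that rose or fell moved by less than 1.5 times in all 68 recounts, from 48 to 50 (higher) and 18 to 25 (lower) in cortex, 38 to 45 and 15 to 17 in liver, and 21 to 27 and 28 to 32 for the difference between tissues. With the line as a replicate block 50 genes rose and 25 fell in cortex, and 43 and 17 in liver, and apart from the genes named with the results the block changed no call. Of 720 values of named genes, 709 kept direction and side of the threshold and 8 became significant, of which *Rbm20* in liver (0.16, adjusted p = 0.0318) did so only by voom with the block. Direction reversed for *Snrpc* in cortex with the BXD/RwwJ lines alone (-0.017, against 0.015) and for *Snrpg* in cortex with all 43 pools (-0.012) and without BXD79, BXD85 and BXD101 (-0.022, against 0.0091), none of them called, and the cause was not tested. Centring libraries on their medians shifted values by -0.0042 in cortex and 0.0059 in liver. Liver depth limits genes such as *Rbm3os* (mean 2.10 reads) and *Rbm46* (7.49 reads).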
